A study of Mus musculus with 6 samples.

Results

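The Msx and Dlx genes encode homeodomain transcription factors that pattern the head skeleton and act in bone-forming cells. Their rows were taken from the deposited expression table by gene symbol, as Msx1, Msx2, Dlx1, Dlx2, Dlx3, Dlx4, Dlx5 and Dlx6. All 8 were among the 17001 rows, and 5 of them (Msx1, Msx2, Dlx2, Dlx5 and Dlx6) had enough signal to be tested. MSX and DLX proteins recognise closely similar AT-rich sites in DNA, where MSX proteins mostly repress and DLX proteins mostly activate transcription. Msx1 and Msx2 are classical targets of bone morphogenetic protein (BMP) signaling in skull and tooth mesenchyme, and Dlx5 acts upstream of osterix (Sp7) in osteoblasts. The Dlx genes sit in the genome as neighbouring pairs that share enhancers, and their nested expression in the pharyngeal arches marks position along the jaw, with Dlx5 and Dlx6 in the lower jaw part.

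The libraries came from cultured preosteoblasts, the precursors of osteoblasts, taken from the skull vault (calvaria) of mice aged 3 days and cultured with serum. Of the 6 libraries, 3 were labelled control, with the genotype NELL2 fx/fx, and 3 were labelled cKO, with the genotype Col1-cre; NELL2 fx/fx. Both groups therefore carried the floxed Nell2 alleles, and they differed by a Cre transgene driven by a Col1a1 promoter fragment that is active in the osteoblast lineage. The labels do not say whether replicates came from separate animals or pools. The p-values therefore measure the spread between these libraries, of which an unknown part may be technical.

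Values were FPKM, fragment numbers scaled to transcript length and library size, which allow levels of different genes to be compared per length. FPKM carries no read number, so depth and counting error of a library are unknown. The FPKM sum of a library was between 573307 and 606428. Groups were compared with limma on log2(FPKM + 1) over the 11590 rows that reached 1 FPKM in 3 libraries or more, and a gene was called at an adjusted p (Benjamini-Hochberg) under 0.05. Fold changes on this scale understate those of low genes.

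The FPKM of the targeted gene did not follow the labels in these libraries. Nell2 had an FPKM of 3.17, 2.59 and 1.88 in control replicates 1, 2 and 3, and of 5.64, 1.61 and 5.74 in cKO-labelled replicates 1, 2 and 3. Only the library labelled cKO replicate 2 lay below the controls, the other 2 lay above them, and the difference was 0.48 on the log2 scale (standard error, SE, 0.37, with limma adjusted p = 0.591). It was 0.93 without cKO replicate 2 (limma adjusted p = 0.598), and 0.26 and 0.25 without cKO replicates 1 and 3. Without cKO replicate 2 the groups did not overlap and the controls were the lower, as in 8.54% of all tested genes. An FPKM for the whole gene cannot show whether its floxed part was lost. Directions below follow the labels.

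The library labelled cKO replicate 2 also stood apart from the others. In a count made after the values were seen, 10 genes there reached 1 FPKM and at least 4 times the value of every other library, each value taken with 0.1 added, against 0 to 4 genes in the other libraries. Of the 10, 2 were on the list of craniofacial transcription factors described further down, Barx1 and Pitx1, and among the rest were Chil1, Tgfa and Il13ra2, which are not on it. The values of Dlx1, Dlx2, Dlx5, Dlx6, Msx1 and Msx2 are given with and without this library, and so are those of some listed genes.

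On the GRCm38 assembly with the GENCODE M21 annotation, which may differ from the release the authors used, Msx1 lies on chromosome 5 from 37820485 to 37824583 and Msx2 on chromosome 13 from 53466884 to 53473074, each with 2 exons and read from the minus strand. Dlx1 (71528113 to 71533981, plus strand) and Dlx2 (71543408 to 71546754, minus strand) face each other on chromosome 2 with 9426 bp between them. Dlx6 (6863334 to 6868568, plus strand) and Dlx5 (6877805 to 6882085, minus strand) face each other on chromosome 6 across 9236 bp. Dlx3 (95120119 to 95125296, plus strand) and Dlx4 (95140447 to 95146263, minus strand) form the pair on chromosome 11, 15150 bp apart. Antisense transcripts overlap exons of Dlx1 over 335 bp (Dlx1as), of Dlx4 over 79 bp (Dlx4os) and of Dlx6 over 104 bp (Dlx6os2). Strand use in the counting is not given in the sources used here, and without it reads of these partners cannot be told apart. The noncoding neighbours Dlx1as, Dlx4os, Dlx6os1, Dlx6os2 and Msx1as were looked up by symbol with 0 of 5 matched, and they were not analysed here.

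The promoters of Msx1 and Dlx2, from RefSeq (GRCm38.p6), are shown because these genes had log2 fold changes of opposite sign between the groups. The table matched 4 of the 8 members (Msx1, Msx2, Dlx1 and Dlx2), and the windows of Msx2 and Dlx1 lie within annotated exons, so those are not printed. Each line gives the 250 bases before the transcription start, at chr5:37824586-37824835 for Msx1 and chr2:71546755-71547004 for Dlx2, both read from the minus strand. Capitals mark GGCGCC, an element bound by BMP-activated SMAD proteins, and CCAAT or its reverse complement, the box bound by NF-Y.
Msx1: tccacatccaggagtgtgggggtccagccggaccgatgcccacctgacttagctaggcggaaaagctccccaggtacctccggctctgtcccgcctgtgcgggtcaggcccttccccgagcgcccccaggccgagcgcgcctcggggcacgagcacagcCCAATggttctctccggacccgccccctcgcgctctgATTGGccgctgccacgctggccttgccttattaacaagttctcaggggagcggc
Dlx2: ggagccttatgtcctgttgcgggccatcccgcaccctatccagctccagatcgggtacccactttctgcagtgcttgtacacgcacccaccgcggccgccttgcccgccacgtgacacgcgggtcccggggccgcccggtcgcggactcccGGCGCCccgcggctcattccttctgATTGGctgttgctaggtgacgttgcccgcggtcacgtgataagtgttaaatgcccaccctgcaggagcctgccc
The CCAAT box, searched after the sequences were read, begins 91 and 54 bases before the start in Msx1 74 bases before it in Dlx2 and 124 bases before it in Msx2, and 33.8% of the 32851 promoter windows of this length hold it on either strand. GGCGCC begins 99 bases before the start of Dlx2 and is held by 9.59% of the windows. The homeodomain core TAATTG (7.17% of windows) and the Runx core TGTGGT (14.0% of windows), each searched on both strands, had no match in the windows of the 4 matched members.

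The Msx genes were the most abundant of the family in these cells. Over the 6 libraries the mean FPKM was 34.4 for Msx2, above 85.9% of the rows of the table, and 18.4 for Msx1. Dlx5 followed with a mean of 7.76 FPKM, Dlx6 with 2.98, Dlx2 with 2.03 and Dlx1 with 0.98. Dlx3, known from epidermis, placenta and bone, had a mean of 0.353 FPKM, and Dlx4 had 0.06 FPKM. Within a library the order held in all 6 for each neighbouring pair except Dlx1 and Dlx3, where Dlx1 was the higher in 4 of 6. Across libraries the ranges of every neighbouring pair overlapped except those of Dlx3 and Dlx4.

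**Figure D1:**
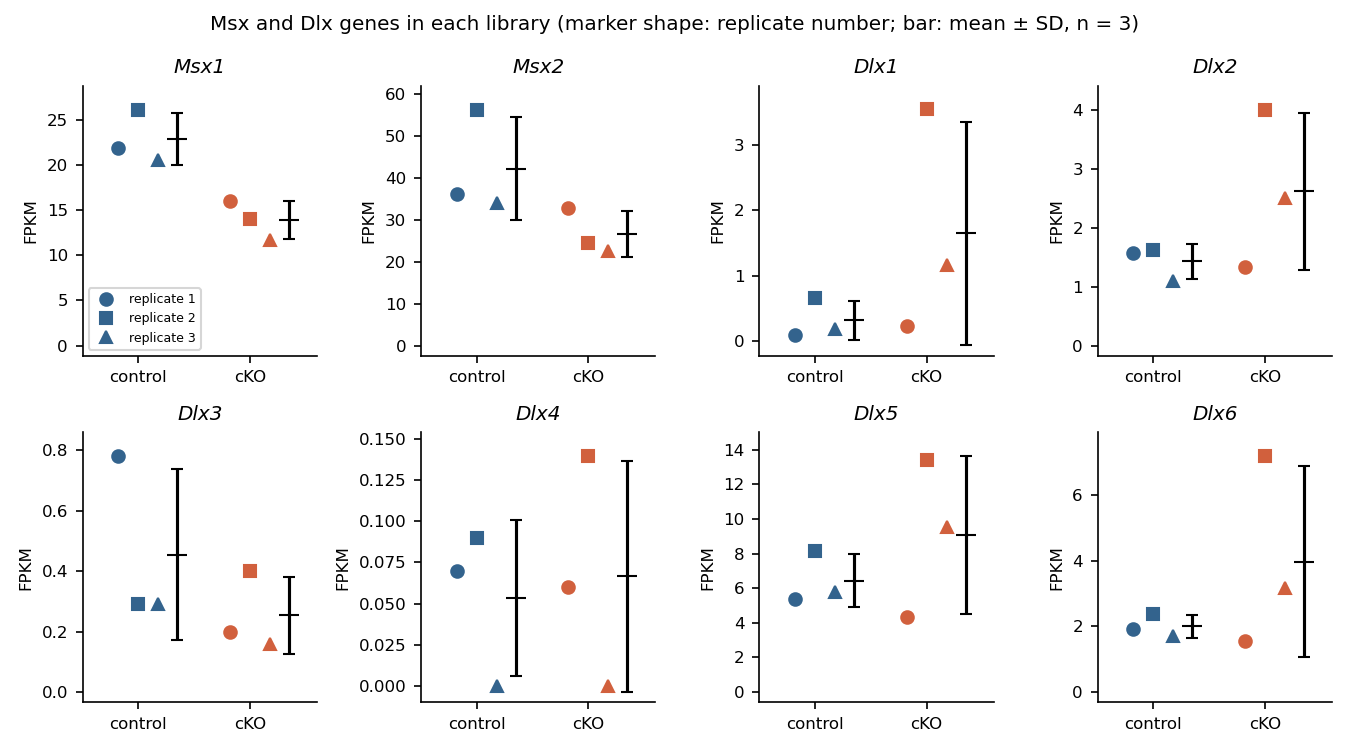
FPKM (y axis of each panel) of the 8 Msx and Dlx genes in the 3 control (blue) and 3 cKO (orange) libraries, with marker shape for the replicate number and a bar for the mean ± SD (n = 3), which can reach below 0 where the spread exceeds the mean. Msx1 and Msx2 are lower in all 3 cKO libraries, and Dlx1, Dlx2, Dlx5 and Dlx6 are highest in cKO replicate 2.

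Msx1, needed for palate and tooth development, had an FPKM of 21.93, 26.18 and 20.64 in control replicates 1, 2 and 3 and of 16, 14.01 and 11.75 in cKO-labelled replicates 1, 2 and 3. The groups did not overlap, and no cKO value reached the lowest control value. The mean was 22.9 ± 2.90 FPKM (SD, n = 3) in control and 13.9 ± 2.13 FPKM (SD, n = 3) in cKO libraries, and the groups differed by -0.68 on the log2(FPKM + 1) scale (SE 0.13, 95% interval -0.99 to -0.38). Its adjusted p was 0.312 from limma, so Msx1 did not pass the threshold, and its unadjusted p was 0.00123. In bulk RNA, fewer cells of a type and less RNA per cell cannot be told apart.

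Msx2, whose dosage controls growth of the skull bones and sutures, had an FPKM of 36.16, 56.31 and 34.08 in the controls and of 32.93, 24.42 and 22.67 in the libraries labelled cKO. The groups did not overlap here either, although cKO replicate 1 lay only just under control replicate 3, and control replicate 2 was far above all others. The means were 42.2 ± 12.3 and 26.7 ± 5.49 FPKM (SD, n = 3), and the difference was -0.62 on the log2(FPKM + 1) scale (SE 0.22, 95% interval -1.14 to -0.11, limma adjusted p = 0.321, unadjusted p = 0.0236). Without control replicate 2 the log2 fold change of Msx2 was -0.40.

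Msx1 and Msx2 are among the genes that the study displays as changed in these same libraries, so their separation is not independent evidence of a direction. Both genes ranked the 3 control libraries above the 3 cKO libraries, and the Pearson correlation of their log2(FPKM + 1) was 0.94 over the 6 libraries, which also share the group difference. The ratio of Msx1 to Msx2 in FPKM stayed between 0.465 and 0.606. The mean log2 ratio, taken with 1 added to each FPKM, differed by -0.06 between cKO and control (two-sided exact permutation test, p = 0.8, where 0.1 is the smallest p that 3 against 3 libraries allow).

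Dlx5, an activator of osteoblast genes, had an FPKM of 5.37, 8.17 and 5.8 in control replicates 1, 2 and 3 and of 4.32, 13.4 and 9.53 in cKO-labelled replicates 1, 2 and 3. Its neighbour Dlx6 had 1.93, 2.37 and 1.7 FPKM in the controls and 1.55, 7.18 and 3.18 FPKM in the cKO libraries. For both genes cKO replicates 2 and 3 lay above all controls and cKO replicate 1 below all of them, so the groups overlapped. The log2 fold change was 0.34 for Dlx5 (SE 0.35, adjusted p = 0.686) and 0.57 for Dlx6 (SE 0.38, adjusted p = 0.539), both from limma. The differences were not larger than the spread between replicates.

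In Dlx1 and Dlx2, too, cKO replicates 2 and 3 were the highest libraries. Dlx2, expressed throughout the arch mesenchyme, had an FPKM of 1.58, 1.63 and 1.09 in the controls and of 1.34, 4.01 and 2.51 in the libraries labelled cKO, a difference of 0.51 on the log2(FPKM + 1) scale (SE 0.26, limma adjusted p = 0.440). Dlx1 had 0.1, 0.66 and 0.19 FPKM in the controls and 0.23, 3.54 and 1.16 FPKM in the cKO libraries, and it did not pass the filter on low values. Its mean log2(FPKM + 1) differed by 0.82 between cKO and control, by 0.33 without cKO replicate 2 and by 1.27 without cKO replicate 1. With a pseudocount of 0.1 the difference was 1.70. In both genes cKO replicate 2 was above cKO replicate 3, and cKO replicate 1 lay among the controls. Across Dlx1, Dlx2, Dlx5 and Dlx6 the pairwise Pearson correlations of log2(FPKM + 1) over the 6 libraries were between 0.90 and 0.98, as a description that leans on cKO replicate 2.

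**Figure D2:**
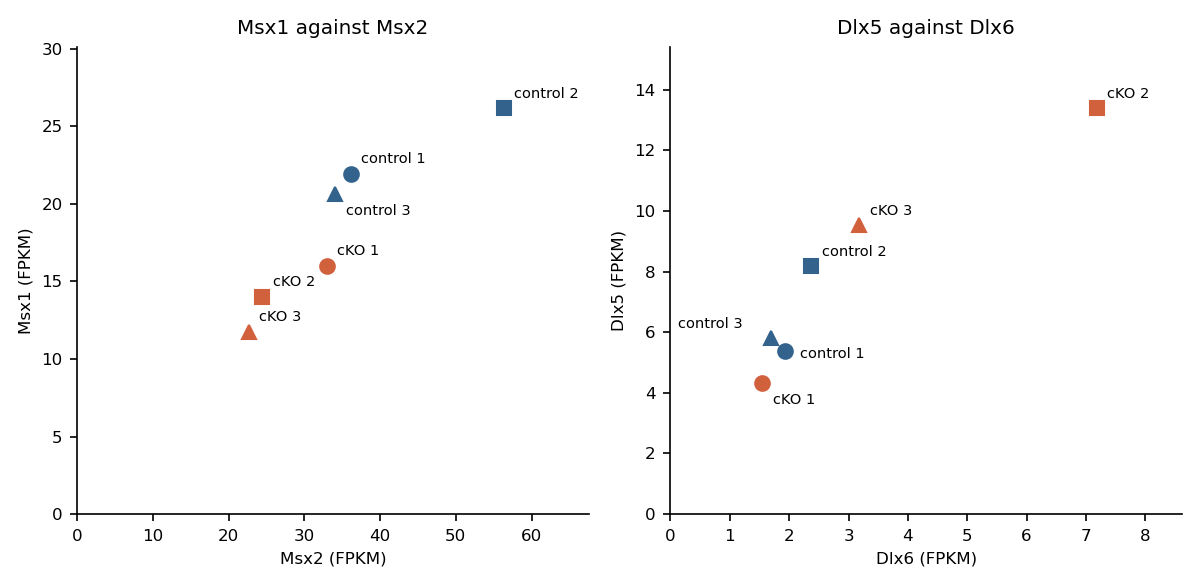
FPKM of Msx1 against Msx2 (left) and of Dlx5 against Dlx6 (right), 1 point per library, controls in blue and cKO in orange. The Msx points part by group, with Msx1 at 20.64 FPKM or more in controls and at 16 FPKM or less in cKO libraries, while the Dlx points run from cKO replicate 1 through the controls to cKO replicate 2.

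Dlx3 and Dlx4 had the lowest levels of the family, with means above 25.0% and 14.1% of the rows of the table. Dlx3 had 0.78, 0.29 and 0.29 FPKM in the controls and 0.2, 0.4 and 0.16 FPKM in the libraries labelled cKO. Dlx4 was listed at 0 in control replicate 3 and cKO replicate 3 and at no more than 0.14 FPKM in the others. Neither gene passed the filter on low values. Dlx3 was highest in control replicate 1, and Dlx4 was highest in cKO replicate 2, as the other Dlx genes were, but at a level near 0.

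The proportions of the genes of a pair were compared between groups within each library. The log2 ratio of Dlx5 to Dlx6, with 1 added to each FPKM, was 1.30 ± 0.16 in controls and 1.07 ± 0.26 in cKO libraries (SD, n = 3, two-sided exact permutation test, p = 0.3). For Dlx1 to Dlx2 it was -0.90 ± 0.29 and -0.59 ± 0.40 (SD, n = 3, same exact test, p = 0.5). Without cKO replicate 2 the groups differed by -0.10 in place of -0.23 for Dlx5 to Dlx6, and by 0.088 in place of 0.31 for Dlx1 to Dlx2. The latter ran from 0.088 to 0.48 with 1 library left out in turn and was 0.98 with a pseudocount of 0.1. For Dlx5 to Dlx6 the difference ran from -0.36 to -0.10. The pair of Dlx3 and Dlx4 was not tested because of the values listed at 0. With 3 against 3 libraries these tests cannot go below 0.1, and a p above it does not show that the proportions were equal. A different balance was seen between Dlx5 and Msx2, whose proteins act in opposite directions on shared sites, in a ratio chosen after the values were seen and given without a test. Dlx5 stood at 0.149, 0.145 and 0.170 of the FPKM of Msx2 in control replicates 1, 2 and 3, and at 0.131, 0.549 and 0.420 in cKO-labelled replicates 1, 2 and 3. In cKO replicates 2 and 3 the ratio was above all controls, and in cKO replicate 1 it was below them.

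Across the table, 0 of the 11590 tested genes were called (0%), so none of the 5 tested Msx and Dlx members was called either. At an unadjusted p under 0.05 limma listed 1521 genes (13.1%), 899 lower (7.76%) and 622 higher (5.37%) in the libraries labelled cKO. Of the 5 tested members, 2 were in the lower group, Msx1 and Msx2, and 0 in the higher. The groups did not overlap in the same 2 members, both lower, against 18.3% of all tested genes, 11.8% in the lower direction and 6.51% in the higher. The median log2 fold change of all tested genes was -0.02.

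The Dlx values turned on single libraries. Without cKO replicate 2 the log2 fold change was 0.03 for Dlx5, 0.13 for Dlx6 and 0.24 for Dlx2. It was -0.69 for Msx1 and -0.57 for Msx2. Msx1 alone then had an unadjusted p under 0.05, where 8.31% of all tested genes did. Msx1 and Msx2 had groups that did not overlap, both lower, as did 17.3% of all tested genes in that direction and 8.54% in the higher. Without cKO replicate 3 the same genes met these rules, with 7.35% of all tested genes at an unadjusted p under 0.05, and 14.1% lower and 9.59% higher without overlap. Without cKO replicate 1 the log2 fold change was 0.74 for Dlx5, 0.97 for Dlx6 and 0.79 for Dlx2, and all 5 tested members then had an unadjusted p under 0.05, where 21.2% of all tested genes did. All 5 also had groups that did not overlap, 2 lower and 3 higher, where 42.0% of all tested genes did so, 24.3% lower and 17.7% higher. In that fit Msx1 had an adjusted p of 0.0384 from limma, among 324 genes (2.80%) under 0.05, and Dlx2, Dlx5, Dlx6 and Msx2 had adjusted p-values between 0.0821 and 0.129. With 1 of the 6 libraries left out in turn, the log2 fold change of Msx1 stayed between -0.78 and -0.58 and that of Msx2 between -0.78 and -0.40.

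**Figure D3:**
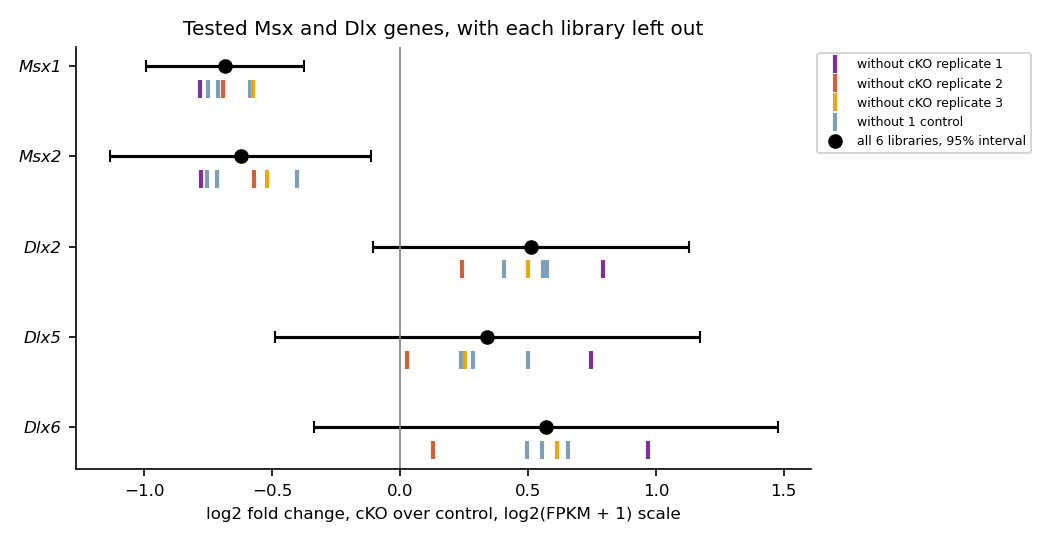
Log2 fold change of cKO over control on the log2(FPKM + 1) scale (x axis) for the 5 tested members, with the limma estimate and its 95% interval from all 6 libraries (black) and a tick for each fit with 1 library left out. The intervals of Msx1 (-0.99 to -0.38) and Msx2 (-1.14 to -0.11) lie below 0, those of the Dlx genes span it, and the Dlx ticks are smallest without cKO replicate 2 and largest without cKO replicate 1.

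BMP signaling is the best known input to the Msx genes and to Dlx5, and the median of its genes was close to that of all tested genes. Of 26 listed BMP genes, 24 were tested, 0 were called, 2 were lower and 2 higher at an unadjusted p under 0.05, and the median log2 fold change was 0.07. The shares over all tested genes were 7.76% lower and 5.37% higher, so the count of BMP genes under that p was near the background. Whatever their p, 17 of the 24 had log2 fold changes above 0 and 7 below, beside 5128 and 6462 of all 11590 tested genes. Those lower at an unadjusted p under 0.05 were the ligands Bmp2 and Bmp4. Bmp2 had 3.08, 2.66 and 3.02 FPKM in the controls and 2.1, 2.05 and 1.93 FPKM in the libraries labelled cKO (log2 fold change -0.37, SE 0.07, limma adjusted p = 0.312). Bmp4 had 33.97, 29.08 and 31.9 FPKM in the controls and 28.59, 26.95 and 23.56 FPKM in the cKO libraries (log2 fold change -0.26, limma adjusted p = 0.340). In both ligands every cKO library was below every control, as in 11.8% of all tested genes.

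The BMP genes higher at an unadjusted p under 0.05 were the ligand Bmp5, with a log2 fold change of 0.38 (limma adjusted p = 0.361), and the type II receptor Acvr2a, with 0.58 (limma adjusted p = 0.312), a gene the study also displays. The immediate BMP targets gave no common direction. Id3, the most abundant of them, had 293.03, 269.69 and 339.86 FPKM in the controls and 250.93, 385.44 and 384 FPKM in the cKO libraries. Id1, Id2, Id4, Smad6 and Smad7 had log2 fold changes between -0.05 and 0.14, and the adjusted p-values of these genes and Id3 were between 0.589 and 0.985 in limma. Id3 was at 0.16 with all libraries. Without cKO replicate 2, Id3 was at 0.05, Id1 at -0.07 and Id2 at -0.10. Without cKO replicate 1, Id3 was at 0.36, Smad7 at 0.24, Id1 at 0.22, Id2 at 0.15, Smad6 at 0.006 and Id4 at -0.04. The groups of Id3 and Smad7 then did not overlap, where 17.7% of all tested genes were higher without overlap.

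Bone genes on which MSX or DLX proteins are known to act had log2 fold changes below 0 in 7 of 8 cases, Col1a1 at -0.01 included. The exception was Spp1 at 0.12 (limma adjusted p = 0.767), and all 8 were tested. Of all 11590 tested genes, 6462 were below 0. At an unadjusted p under 0.05, 4 were lower and 0 higher, 0 were called, and the median log2 fold change was -0.40, beside 7.76% lower and 5.37% higher over all tested genes and their median of -0.02. Ibsp, which encodes bone sialoprotein and is among the genes the study displays, had 123.86, 61.9 and 48.79 FPKM in the controls and 34.64, 26.17 and 27.65 FPKM in the libraries labelled cKO (log2 fold change -1.27, SE 0.32, limma adjusted p = 0.312). Sp7, a target of Dlx5, had 17.57, 16.86 and 13.2 FPKM in the controls and 12.44, 10.4 and 10.31 FPKM in the cKO libraries (log2 fold change -0.48, limma adjusted p = 0.312). Neither gene overlapped between groups, where 11.8% of all tested genes were lower without overlap. Without cKO replicate 2 the log2 fold changes were -1.19 for Ibsp and -0.44 for Sp7, and for the ligands they were -0.38 for Bmp2 and -0.27 for Bmp4.

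The other genes lower at an unadjusted p under 0.05 were Alpl, the alkaline phosphatase of mineralizing cells, at -0.45 and the osteocalcin gene Bglap, which MSX2 represses, at -1.15 (adjusted p = 0.312 for each from limma). Bglap and Bglap2 are near-identical copies whose reads can be split, and Bglap2 was at -0.34 (limma adjusted p = 0.583). It was at -0.60 without cKO replicate 2 (limma adjusted p = 0.598), and at -0.22 and -0.21 without cKO replicates 1 and 3. Runx2, the lineage regulator, was at -0.21 (limma adjusted p = 0.381) and Col1a1 at -0.01.

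**Figure D4:**
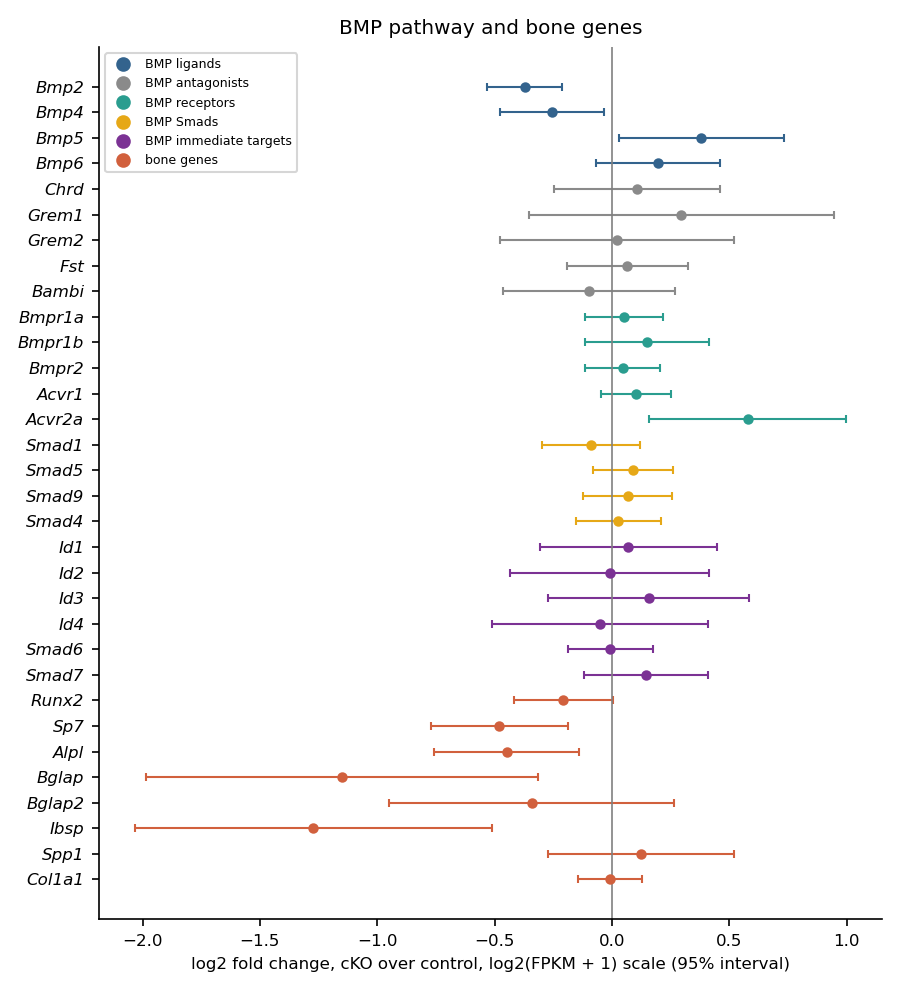
Log2 fold change of cKO over control on the log2(FPKM + 1) scale (x axis), with 95% intervals from limma, for the tested BMP pathway genes coloured by role and the 8 bone genes (orange-red). Bmp2 and Bmp4 lie below 0, Acvr2a above it, the immediate targets around it, and Ibsp at -1.27 is the lowest.

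Transcription factors of craniofacial mesenchyme did not share 1 pattern. Of 27 listed, 26 were in the table and 16 were tested, with 0 called, 4 lower and 1 higher at an unadjusted p under 0.05, and a median of -0.15 for the log2 fold change, beside the 7.76% lower and 5.37% higher over all tested genes. In cKO replicate 2, the library with the most Dlx1, Dlx2, Dlx5 and Dlx6, 3 of the 16 tested factors were highest and 3 were lowest (18.8% each), where 23.1% of all tested genes were highest and 16.7% lowest. Of all 26 in the table, 7 were highest there (26.9%) and 4 lowest (15.4%). The factors described next were picked after their values were seen, for being highest there. Barx1, which marks the jaw and molar region, had 0.53, 0.2 and 0.1 FPKM in control replicates 1, 2 and 3 and 0.15, 13.73 and 0.44 FPKM in cKO-labelled replicates 1, 2 and 3. Pitx1, a factor of the lower jaw and hindlimb, was at 1.31 FPKM in cKO replicate 2 and listed at 0 in the other 5 libraries, and Hand2, of the lower jaw arch, was at 0.29 FPKM there and listed at 0 elsewhere. Gsc, a target of the Dlx5 and Dlx6 domain, had 1, 1.49 and 1.61 FPKM in the controls and 1.01, 4.77 and 1.25 FPKM in the cKO libraries. In cKO replicate 3, which came next for the Dlx genes, Barx1, Gsc, Pitx1 and Hand2 lay within or below the range of the controls.

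The Gsc log2 fold change was 0.34 with all libraries and -0.14 without cKO replicate 2, and neither passed (adjusted p = 0.718 and 0.758 from limma). Nkx3-2, a factor of the jaw joint and cartilage that was picked after its values were seen, had 4.14 FPKM in cKO replicate 2 and 0.09 to 0.64 FPKM elsewhere. Shox2, which acts in the palate and limb and is also displayed by the study, had 2.79, 3.21 and 2.91 FPKM in the controls and 4.62, 6.86 and 3.3 FPKM in the cKO libraries (log2 fold change 0.54, limma adjusted p = 0.347). Without cKO replicate 2 the log2 fold change was 0.31. The part of the tissue each culture came from, or the mixture of cells in it, was not tested.

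Of the 16 tested factors, 12 had log2 fold changes below 0, beside 6462 of all 11590 tested genes. Those described here were picked as lower, so a direction shared with Msx1 and Msx2 follows from that choice. Alx4, a paired-type homeobox gene of the skull vault, had 19.61, 22.53 and 17.32 FPKM in the controls and 14.57, 15.76 and 13.8 FPKM in the libraries labelled cKO (log2 fold change -0.40, SE 0.10, limma adjusted p = 0.312). Its relative Alx1 had a log2 fold change of -0.70 (limma adjusted p = 0.321) with overlapping groups, since control replicate 3 at 5.76 FPKM lay below cKO replicate 1 at 6.12 FPKM. Prrx1, a general mesenchyme factor, was at -0.21 (limma adjusted p = 0.340). Its groups did not overlap, and 11.8% of all tested genes were lower without overlap. Zic1, Six2 and Twist1, which mark calvarial and suture mesenchyme, had log2 fold changes between -0.21 and -0.19, and none had an unadjusted p under 0.05. With 1 cKO library left out in turn, Zic1 ran from -0.27 to -0.05, Six2 from -0.31 to -0.10 and Twist1 from -0.22 to -0.16. The groups of Twist1 did not overlap without cKO replicate 2, nor did those of Six2 without cKO replicate 3 (limma adjusted p = 0.631 and 0.674). With these libraries left out, 17.3% and 14.1% of all tested genes were lower without overlap.

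**Figure D5:**
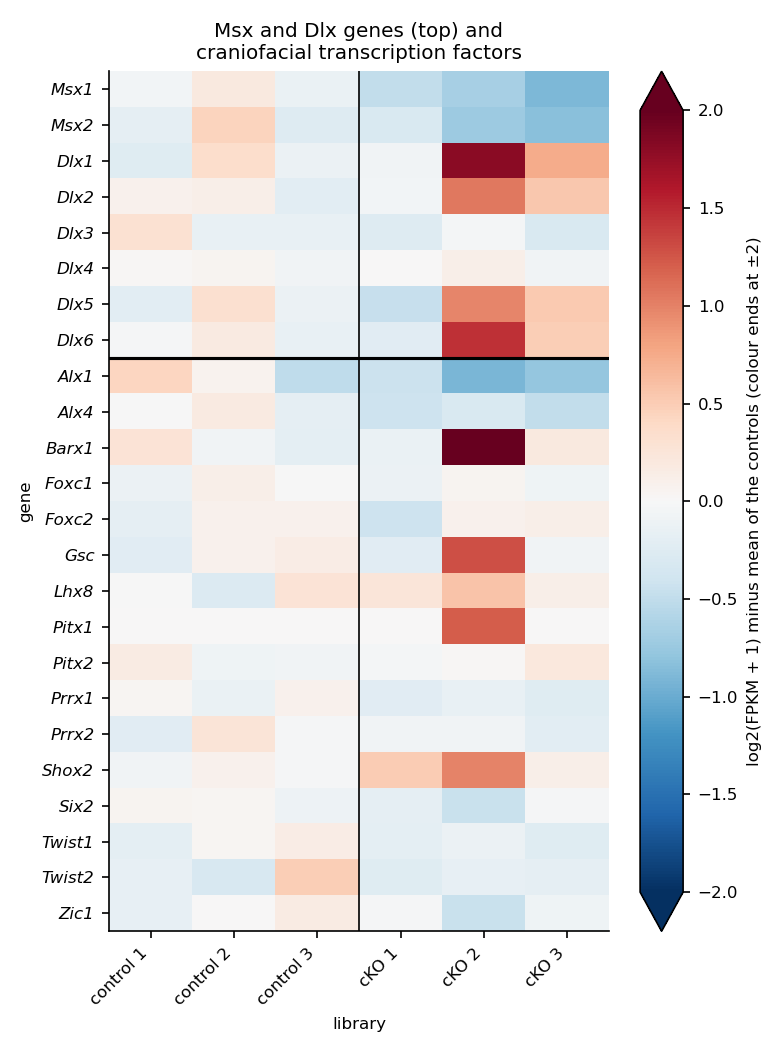
Log2(FPKM + 1) minus the mean of the 3 controls, as colour (red higher, blue lower, ends at ±2), for the 8 Msx and Dlx genes (top) and most of the listed craniofacial factors that reach an FPKM of 1 in some library (rows), in each library (columns). Dlx1, Dlx2, Dlx5, Dlx6, Barx1, Gsc and Pitx1 are reddest in cKO replicate 2, and Msx1, Msx2 and Alx4 are blue in all 3 cKO libraries.

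None of the 4 genes listed for proteins known to bind MSX or DLX proteins passed a test. Maged1, which binds both DLX5 and MSX2, was abundant at 397.5, 414.54 and 390.41 FPKM in the controls and 391.25, 351.21 and 400.8 FPKM in the libraries labelled cKO. Spen, Pias1 and Ehmt2, which act with MSX proteins in repression, were all tested. The log2 fold changes of the 4 genes were between -0.10 and 0.04, and 0 of them had an unadjusted p under 0.05.

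Markers checked the label of the cells. Col1a1 was at 8052.61 to 8578.05 FPKM and Runx2 at 10.98 to 14.71 FPKM in all libraries. Ibsp, Bglap, Sp7 and Alpl of the same list were lower in the cKO libraries without overlap, as were 11.8% of all tested genes. The osteoblast lineage list shares 7 of its 8 genes with the bone genes above and had the same counts, with a median log2 fold change of -0.40. Dlx genes are also expressed by forebrain neurons that make GABA, and Gad1 and Gad2, which define those neurons, were at no more than 0.05 FPKM in any library. The summed FPKM of the 5 neuron and glia markers, led by Tubb3, was 10.8, 17.9 and 10.7 in the controls and 16.6, 9.67 and 19.9 in the cKO libraries. Tubb3 was lowest in cKO replicate 2 at 6.91 FPKM, and Gfap, of astrocytes, was at 4.42 FPKM in control replicate 2, 3.99 FPKM in cKO replicate 3 and 0.15 to 0.51 FPKM elsewhere. Sox10, of neural crest and glia, had 0.47, 0.51 and 1.28 FPKM in the controls and 1.32, 2.25 and 2.05 FPKM in the cKO libraries. Its groups did not overlap, where 6.51% of all tested genes were higher without overlap. Sox10 was highest in cKO replicates 2 and 3, as the 4 genes Dlx1, Dlx2, Dlx5 and Dlx6 were. Its log2 fold change was 0.73 (limma adjusted p = 0.312, unadjusted p = 0.0086), and 5.37% of all tested genes were higher at an unadjusted p under 0.05. The part of such cells in the Dlx values was not tested. Tubb3 had a log2 fold change of 0.09, or of 0.41 without cKO replicate 2, and of -0.09 and -0.05 without cKO replicates 1 and 3.

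Epithelia also express Msx and Dlx genes. The 4 epithelial markers, led by Krt18, summed to 0.46, 3.56 and 13.2 FPKM in control replicates 1, 2 and 3 and to 42.5, 35.2 and 15.9 FPKM in cKO-labelled replicates 1, 2 and 3. All 3 that were tested were higher at an unadjusted p under 0.05, as were 5.37% of all tested genes. Of the 3, 0 were called, and the median of their log2 fold changes was 2.31. Epcam, at 0 to 0.47 FPKM in the controls and 1.21 to 1.58 FPKM in the cKO libraries, passed the filter through the latter alone. Its place in the count and the median is therefore not read as a result. The sum of the 4 markers was highest in cKO replicate 1, in which Dlx5 and Dlx6 were lowest. It came next in cKO replicate 2, in which Dlx5 and Dlx6 were highest and Epcam had its highest value, 1.58 FPKM. The part of epithelial cells in the Msx and Dlx values was not tested. Cartilage markers, led by Col2a1, summed to 142, 152 and 89.6 FPKM in the controls and 130, 163 and 152 FPKM in the cKO libraries. Of the 4 tested, Acan and Col9a1 were higher at an unadjusted p under 0.05, as were 5.37% of all tested genes. Neither met this rule in limma without cKO replicate 2, or without cKO replicate 3. The median log2 fold change was 0.34, or 0.22 with no filter, and Matn1 was at or near 0 throughout.

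Adipocyte markers, led by Fabp4, summed to 29.2, 33.2 and 43.6 FPKM in the controls and 69.2, 113 and 75.6 FPKM in the libraries labelled cKO. Among 3 tested, Fabp4 and Pparg were higher at an unadjusted p under 0.05, as were 5.37% of all tested genes. Fabp4 had a log2 fold change of 1.68, or of 1.44 without cKO replicate 2, and the median of the 3 was 0.46. Adipoq, Plin1 and Cfd, which define mature adipocytes, were under 1 FPKM in every library. Macrophage markers, led by Lyz2, summed to between 36.5 and 96.5 FPKM, and none of the 6 tested had an unadjusted p under 0.05 (median 0.21). The same held for 4 tested muscle markers (median 0.02, led by Actc1, summed FPKM 17.0 to 39.9) and for Cdh5, the only endothelial marker tested (-0.12), of a list that summed to 3.87 FPKM at most. The part of these cells in the Msx and Dlx values was not tested.

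The labels give no sex, and the libraries differed in it. The Y-linked gene Ddx3y was at 17.27, 17.33 and 15.65 FPKM in control replicate 3 and cKO replicates 1 and 3 and at 0 to 0.06 FPKM in the others. Each group held libraries with and without Y-linked expression, so the libraries of a group were not all repeats of the same RNA. Among the 3 libraries without Y-linked expression Dlx1 had 0.1, 0.66 and 3.54 FPKM and Dlx6 had 1.93, 2.37 and 7.18 FPKM, with cKO replicate 2 the highest. With a term for Y-linked expression in the fit, the log2 fold change was -0.65 for Msx1, -0.59 for Msx2, 0.69 for Dlx2, 0.82 for Dlx6 and 0.52 for Dlx5. Of these, 4 had an unadjusted p under 0.05 (Msx1, Msx2, Dlx2 and Dlx6), where 10.5% of all tested genes did, and 0 were called in limma.

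Genes most like each member in pattern were found by the Pearson correlation of log2(FPKM + 1) over the 6 libraries, as a description. For Msx1 they were Dkk2, a secreted modulator of WNT signaling, with U2af2 and Arrdc4 (r = 0.996 to 0.999), and 215 of the 11590 tested genes had r over 0.95. For Msx2 they were Eftud2, the WNT receptor gene Fzd6 and the TGF-beta receptor gene Tgfbr2 (r = 0.994 to 0.996). For Dlx6 they were Atp6ap2, Rsph9 and Eya1, the last a transcriptional coactivator of head development that had 4.97, 5.13 and 4.61 FPKM in the controls and 4.34, 7.43 and 5.47 FPKM in the libraries labelled cKO (r = 0.991). Dlx5 was most like Pomt1, Pde8a and Cox7a2l, and Dlx2 most like Cdsn, Rsad1 and Rab27a, with 46 and 51 genes over 0.95.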

How the data were processed

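The authors aligned reads with HISAT2 and normalized them with DESeq (build GRCm38 in the submitters' processing notes), and they deposited FPKM values given to 2 decimals. The annotation release and the FPKM program are not given in the sources used here. FPKM is not a count, so no count test was run. Values were taken as log2(FPKM + 1) and rows that reached 1 FPKM in 3 of 6 libraries or more were compared with limma 3.58.1 in R 4.3.3 (lmFit, eBayes, Benjamini-Hochberg adjustment over 11590 rows), after the study's moderated test. The fit was tested on simulated data. Pair ratios were compared by exact permutation. Members, gene lists and tests were chosen with earlier results of these data known; the named genes are Nell2, the members, the listed genes and the 3 genes most like each tested member, and others are marked as chosen after their values were seen. Promoters came from RefSeq and positions from GENCODE M21. Alternatives changed the filter, pseudocount, variance model, scaling, a Y-linked covariate, the replicate block and single libraries. Some listed genes count in the list totals but are not reported here by name.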

Additional observations from a re-analysis of the deposited data

How the results depend on the processing

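Msx1, Msx2, Dlx2, Dlx5 and Dlx6 kept the direction of their log2 fold change in every alternative tried, and none of the filter, pseudocount, variance, scaling, covariate and replicate block alternatives called a gene. With 1 library left out in turn, genes called ran from 0 to 324, genes at an unadjusted p under 0.05 from 852 to 2461 (1521 with all libraries), members called from 0 to 1, members at an unadjusted p under 0.05 from 1 to 5, members with groups that did not overlap from 2 to 5, and called genes of the other lists from 0 to 2. The highest of each came without cKO replicate 1, where Msx1, Epcam and Fabp4 were called, and 2 genes were called without control replicate 3. Epcam, at 0.47 FPKM or less in the controls, had passed the filter through the cKO libraries alone, so its call is not read as a result. Members at an unadjusted p under 0.05 numbered 1 (Msx1) without cKO replicate 2 or 3, and 4 with the Y-linked covariate. The difference between cKO and control in the log2 ratio of Msx1 to Msx2, -0.06 with all libraries, ran from -0.19 to 0.00339 and turned to 0.00339 and 0.00317 without control replicates 1 and 3. The median log2 fold change ran from -0.55 to -0.28 for the bone genes and for the osteoblast lineage list, from -0.18 to -0.079 for the craniofacial factors, from 0.033 to 0.12 for BMP genes, from -0.22 to 0.35 for muscle markers, from 0.019 to 0.46 for macrophage markers, and from -0.25 to 0.0095 for the endothelial marker. With no filter the median was -0.048 for craniofacial factors and 0.084 for neuron and glia markers (0.41 in the reported fit), which were at 0.089 with an FPKM of at least 1 in all libraries and at 0.70 with a pseudocount of 0.1. With no filter it was 0.23 for adipocyte, 0.089 for macrophage and 0.056 for endothelial markers. With the Y-linked covariate the osteoblast lineage list was at -0.26, and upper-quartile scaling moved the median of all genes to 0.000672. The cause was not tested. With the replicate block 0 genes were called, 1465 had an unadjusted p under 0.05 and the member counts were 0 and 2. Same-numbered libraries correlated in their deviations at 0.03, -0.17 and 0.21, so the numbers were not taken to pair them. Dlx1, Dlx3 and Dlx4 lay under the filter. FPKM hides depth, so the counting error of the low Dlx values is unknown.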
